A study of Mus musculus with 6 samples.

Results

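Ferroptosis is a form of cell death in which iron drives the peroxidation of polyunsaturated phospholipids, and a cell can only peroxidise the lipids that its enzymes have built into its membranes. Acyl-CoA synthetases activate fatty acids, acyltransferases of the membrane attach them to lysophospholipids, peroxisomal enzymes make ether-linked phospholipids that can also carry polyunsaturated chains, and oxidoreductases supply the electrons that start or feed peroxidation. Proximal tubule cells are rich in mitochondria and fatty acid metabolism and are known to be prone to this form of death after ischaemia. The 10 genes described here were taken by name as enzymes of this lipid remodelling: the acyl-CoA synthetases ACSL1, ACSL3, ACSL4 and ACSL5, the lysophospholipid acyltransferases LPCAT3, MBOAT1 and MBOAT2, the ether lipid enzyme AGPS, the cytochrome P450 reductase POR and the polyamine acetyltransferase SAT1. Each had a single entry among the 39234 genes of the deposited table, and all 10 passed the filter on low counts, so that they are 10 of 18188 genes tested.

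RNA was sequenced from 3 libraries of control HK-2 cells and 3 libraries of HK-2 cells overexpressing USAG-1, a secreted antagonist of bone morphogenetic proteins that is encoded by SOSTDC1. HK-2 is an immortalised line from human proximal tubule, and the gene identifiers are human although the labels name mouse as the organism. All 6 libraries carry the genotype WT in the labels and none is labelled as hypoxic. The methods describe overexpression by transient transfection of a plasmid into cells without an authenticated STR profile, and the labels do not say what the control cells received or whether the replicates came from separate cultures, so that p-values measure only the spread between these libraries.

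Counts of SOSTDC1 were 79, 80 and 60 in control replicates 1, 2 and 3 against 5072, 3907 and 4438 in USAG-1 overexpression replicates 1, 2 and 3, which matches the labels. Between 41236194 and 48699471 counts stood behind each library. Levels below are CPM, counts scaled to a common library total, after TMM scaling, a correction for differences in RNA composition, and a log2 fold change compares USAG-1 overexpression with control. A gene was called changed at an adjusted p under 0.05 (edgeR quasi-likelihood, Benjamini-Hochberg over all genes tested). Control replicate 3 stood apart from the other control libraries, with a median absolute log2 difference of 0.24 from their mean over all genes tested, against 0.11 between control replicates 1 and 2. KRT8 and PAX8, markers of epithelium and of the renal tubule lineage, were at 1081 ± 170.2 and 375 ± 8.57 CPM (SD, n = 3) in control cells, and the epithelial list summed to 1801 to 2258 CPM in control libraries and 2112 to 2216 CPM with overexpression. KRT18, KRT7, KRT19 and EPCAM of that list, named after their values were seen, had means of 324, 75.7, 71.3 and 32.4 CPM in control cells. CDH1 and PAX2, named in the same way, were nearly absent, with at most 9 and 14 counts in a library, and were not tested. Of the markers of mature proximal tubule, GGT1 and MME were the most abundant, and the list summed to 110.2 to 144 CPM against 179 to 206 CPM. GGT1 held most of that sum, with means of 104.5 CPM in control libraries and 153.1 CPM with overexpression. GGT1 and MME were the 2 called of 6 tested, both higher, beside 8.95% of all genes called higher. The others tested, SLC34A1, SLC5A2, ANPEP and GATM, had log2 fold changes of 0.74, 0.17, -0.21 and -0.30 and were not called. LRP2, the endocytic receptor megalin, had no count in any library. Mitochondrially encoded genes took 4.80 to 5.59% of the counts in control libraries and 1.5 to 1.55% with overexpression.

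Markers of T and cytotoxic cells moved with the groups. All 19 of these markers were called lower with USAG-1 overexpression, beside 6.91% of all genes tested. Their summed level was 104 to 131 CPM in control libraries and 8.95 to 13 CPM in the others, and GNLY and TRAC were the most abundant. Pan-leukocyte markers, led by ITGB2 and ARHGDIB, summed to 178 to 198 CPM in control libraries and 96.8 to 109 CPM with overexpression. Of these markers, 6 of 8 were called lower, beside the same 6.91%. The labels name only HK-2 cells, and whether these reads came from such cells in the cultures was not tested. Fewer such cells and less RNA per cell cannot be told apart in bulk RNA either. B cell markers (IGHM and IGKC the most abundant) summed to 9.5 to 12.3 CPM against 6.14 to 9.73 CPM with none called, beside 15.9% of all genes. Myeloid markers (VCAN and S100A9) summed to 534 to 682 CPM against 664 to 707 CPM, with 2 of 10 tested called lower, beside 6.91% of all genes. VCAN, which other cell types also make, held most of that sum, at 416 to 602 CPM in control libraries and 596 to 634 CPM with overexpression. The 2 called lower, named after their values were seen, were LYZ and ITGAM, with log2 fold changes of -0.73 and -1.20. Platelet and erythroid markers (HBB and HBA2) reached 111 CPM in control replicate 2 and 78.3 CPM in USAG-1 overexpression replicate 1, with at most 20.4 CPM in the other libraries. Fibroblast markers (LUM and COL1A1, with COL1A2 at no count) summed to 39.8 to 41.5 CPM against 56.0 to 58.0 CPM. LUM held most of that sum, with means of 33.6 CPM in control libraries and 49.8 CPM with overexpression. It was the 1 called of 3 tested, beside 8.95% of all genes called higher. COL1A1 had means of 6.5 and 6.9 CPM and was not called (adjusted p = 0.713, edgeR). The part of these cell types, and of the mitochondrial share, in the results below was not tested. Leaving the mitochondrially encoded genes out of the fit, with 18183 genes still tested, bears only on scaling and on the adjustment of p. That fit kept POR, ACSL3 and ACSL1 as the 3 called enzymes, beside 15.7% of all genes called.

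Of the 10 lipid remodelling enzymes, POR, ACSL3 and ACSL1 rose with USAG-1 overexpression and none was called lower. The background was 15.9% of all genes tested called in either direction, 8.95% called higher and 6.91% called lower. The median log2 fold change of the 10 genes was 0.13, against -0.02 over all genes tested, and 8 of the 10 values were above 0, where 47.5% of all genes were. The libraries of the 2 groups did not overlap for 7 of the 10 genes, 6 of them higher and 1 lower with overexpression, beside 37.6% of all genes in either direction, 19.4% higher and 18.1% lower. An unadjusted p under 0.05 was reached by 6 of the 10, beside 30.5% of all genes. The changes were small: the median absolute log2 fold change of the 2884 called genes was 0.46, the size seen for POR, and the other 9 enzymes stayed below it.

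**Figure D1:**
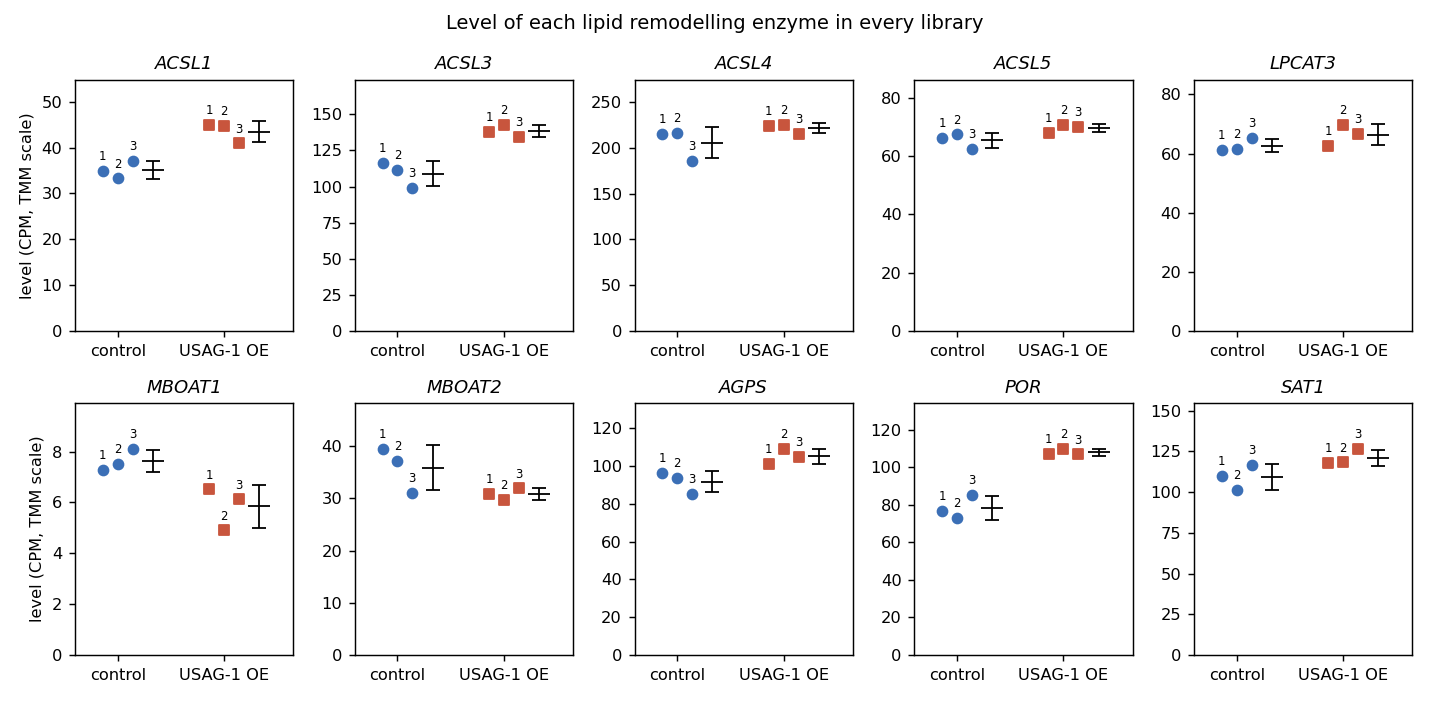
Level of each of the 10 enzymes in CPM on the TMM scale (y axis, from 0) in the 3 control libraries (circles) and the 3 USAG-1 overexpression libraries (squares), numbered by replicate, with the mean and SD of each group beside the points. POR and ACSL3 show the widest gaps between the groups relative to their spread, ACSL4, LPCAT3 and MBOAT2 overlap, and control replicate 3 is the lowest control for ACSL3, ACSL4, ACSL5, MBOAT2 and AGPS.

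POR, NADPH-cytochrome P450 oxidoreductase, is an endoplasmic reticulum flavoprotein that passes electrons from NADPH to cytochromes P450 and has been linked to phospholipid peroxidation in ferroptosis. The gene (ENSG00000127948; chromosome 7, 75899200 to 75986855, plus strand) was at 76.5, 73.1 and 85.1 CPM in control replicates 1, 2 and 3 and at 106.9, 109.8 and 106.8 CPM in USAG-1 overexpression replicates 1, 2 and 3. The overexpression libraries lay close together and all stood above the highest control, replicate 3. The mean rose from 78.2 ± 6.18 to 107.8 ± 1.71 CPM (SD, n = 3 each), 37.9% higher, with a log2 fold change of 0.46 (standard error, SE, 0.07, 95% interval 0.30 to 0.62, edgeR quasi-likelihood adjusted p = 0.00423). Only 3.29% of the genes tested had a smaller p. POR was called under all 13 alternatives, with adjusted p from 9.64e-07 to 0.0309 and log2 fold changes from 0.42 without control replicate 2 to 0.53 without control replicate 3. It shares 25 bases with TMEM120A on the opposite strand, which had 17.0% as many counts.

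The genes whose log2 CPM followed POR most closely over the 6 libraries, among 11091 genes with a symbol and at least 5 CPM on average, were GATAD2A, BAG6 and UBE2R2, with Pearson correlations of 0.9988, 0.9985 and 0.9985. GATAD2A is a subunit of the NuRD chromatin complex, BAG6 a chaperone for membrane proteins and UBE2R2 a ubiquitin-conjugating enzyme. As for POR, the 3 overexpression libraries were high and control replicate 3 was the highest control in each. BAG6 for example was at 316.6, 312.0 and 352 CPM in control libraries and 427.8, 433.7 and 426.7 CPM with overexpression. These correlations describe 6 points in 2 groups, and any gene with a like gap between the groups scores high.

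Among the 4 acyl-CoA synthetases, which turn free long-chain fatty acids into the acyl-CoA thioesters used for membrane lipids, ACSL3 and ACSL1 rose and ACSL4 and ACSL5 did not pass the test. ACSL3 (ENSG00000123983; chromosome 2, 222860942 to 222944609, plus strand), a synthetase of the endoplasmic reticulum and lipid droplets that is known for activating monounsaturated fatty acids, was at 116, 112 and 99.2 CPM in control replicates 1, 2 and 3. With USAG-1 overexpression it was at 137.5, 142.5 and 134 CPM. The lowest overexpression library stood above the highest control, and the 3 controls spread more widely than the 3 overexpression libraries. The mean rose from 109 ± 8.79 to 138 ± 4.1 CPM (SD, n = 3 each), with a log2 fold change of 0.34 (SE 0.07, 95% interval 0.18 to 0.51, edgeR quasi-likelihood adjusted p = 0.016). The call was lost without USAG-1 overexpression replicate 1 (0.35), 2 (0.32) or 3 (0.36), with adjusted p ranging from 0.000425 to 0.0792 over the 13 alternatives.

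ACSL1 (ENSG00000151726; chromosome 4, 184755595 to 184826818, minus strand), a synthetase of broad substrate range that feeds both oxidation and lipid synthesis, was at 34.9, 33.3 and 37.1 CPM in control replicates 1, 2 and 3. In USAG-1 overexpression replicates 1, 2 and 3 it was at 44.9, 44.7 and 40.9 CPM. Again the groups did not overlap, with control replicate 3 and overexpression replicate 3 nearest to each other. The log2 fold change was 0.31 (SE 0.07, 95% interval 0.15 to 0.47, edgeR quasi-likelihood adjusted p = 0.0232), from a mean of 35.1 ± 1.9 to 43.5 ± 2.23 CPM (SD, n = 3 each). It lost the call without control replicate 1 (0.31) or 2 (0.27) as well as on omission of overexpression replicate 1 (0.29) or 2 (0.29), with adjusted p from 0.00257 to 0.11 over the 13 alternatives.

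ACSL4 (ENSG00000068366; chromosome X, 109624244 to 109733403, minus strand) is the synthetase best known in ferroptosis, since it prefers arachidonic and adrenic acid and so loads membranes with oxidisable chains. It was at 214.7, 216.0 and 186 CPM in control replicates 1, 2 and 3 and at 224, 225 and 215.0 CPM with USAG-1 overexpression. Overexpression replicate 3 lay between control replicates 1 and 2, and control replicate 3 was the library that stood low. The log2 fold change was 0.11 (95% interval -0.06 to 0.27, adjusted p = 0.356, edgeR quasi-likelihood), and 0.04 without control replicate 3. Its upper bound lies below the estimates for ACSL1 and ACSL3 and within their intervals.

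ACSL5 (ENSG00000197142; chromosome 10, 112374116 to 112428376, plus strand), a synthetase of mitochondria and the endoplasmic reticulum, was at 66.1, 67.4 and 62.5 CPM in control libraries and 67.9, 70.6 and 70.0 CPM with overexpression. The groups were separated by the narrow gap between control replicate 2 and overexpression replicate 1. The log2 fold change of 0.09 did not pass (95% interval -0.04 to 0.22, adjusted p = 0.347, edgeR quasi-likelihood). ZDHHC6 overlaps ACSL5 by 3949 bases on the opposite strand and had 60.8% as many counts, with 2262, 2508 and 1841 counts in control libraries and 1542, 1321 and 1451 with overexpression. The libraries were made strand-specific, but whether counting used the strand is not given in the sources used here, so that reads of the 2 genes may not have been told apart.

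**Figure D2:**
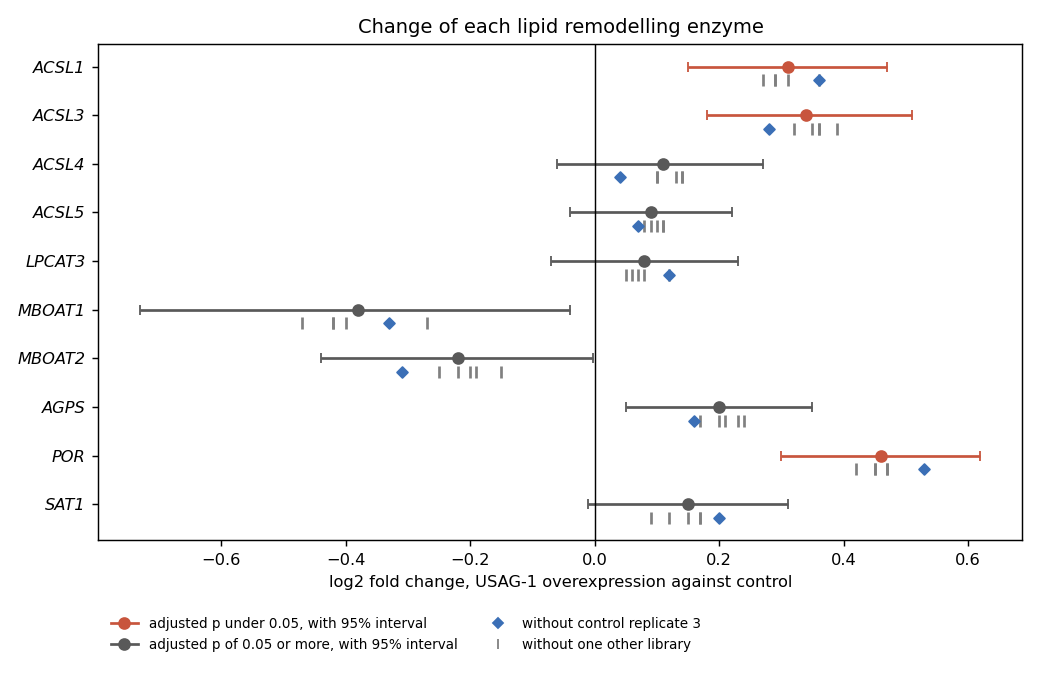
Log2 fold change of each of the 10 enzymes (x axis) with its 95% interval, in colour for POR, ACSL3 and ACSL1, which were called, and grey for the others. Small marks under each estimate give the value without each library in turn, with diamonds for control replicate 3: no mark crosses 0, and leaving out control replicate 3 moves ACSL4 from 0.11 to 0.04 and POR from 0.46 to 0.53.

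The acyltransferases of the remodelling step showed no call. LPCAT3 (ENSG00000111684; chromosome 12, 6976185 to 7018477, minus strand) places polyunsaturated chains into phosphatidylcholine and phosphatidylethanolamine, the step after ACSL4. It was at 61.2, 61.5 and 65.4 CPM in control libraries and at 62.6, 69.6 and 66.7 CPM with overexpression, so that the groups overlapped. LPCAT3 had a log2 fold change of 0.08 (95% interval -0.07 to 0.23, adjusted p = 0.454, edgeR quasi-likelihood). LPCAT3 lies across from EMG1 and C1S on the opposite strand. EMG1 had 156% as many counts as LPCAT3, and C1S had 1359, 1648 and 1318 counts in control libraries and 2209, 2009 and 1880 with overexpression.

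MBOAT1 and MBOAT2 attach monounsaturated chains to lysophosphatidylethanolamine, which leaves less room for polyunsaturated chains, and have been described as suppressors of ferroptosis. Both had the only log2 fold changes below 0 among the 10 genes, and neither passed the test. MBOAT1 (ENSG00000172197; chromosome 6, 20099684 to 20212469, minus strand), with the fewest counts of the 10, was at 7.28, 7.5 and 8.11 CPM in control libraries and at 6.51, 4.90 and 6.12 CPM with overexpression. Every overexpression library was below every control, with replicate 2 lowest and a spread of 14.4% of the mean. Its log2 fold change was -0.38 (SE 0.15, 95% interval -0.73 to -0.04, edgeR quasi-likelihood adjusted p = 0.12).

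MBOAT2 (ENSG00000143797; chromosome 2, 8852690 to 9003684, minus strand) was at 39.5, 37.1 and 31.1 CPM in control replicates 1, 2 and 3. In the overexpression libraries it was at 30.8, 29.7 and 31.9 CPM. Control replicate 3 fell within the range of the overexpression libraries, while the other controls stood above them. On the log2 scale the change was -0.22 (95% interval -0.44 to -0.0034, adjusted p = 0.158, edgeR quasi-likelihood). Without control replicate 3 it was -0.31 and passed (adjusted p = 0.00616, with 0.00616 to 0.403 over the 13 alternatives).

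AGPS (ENSG00000018510; chromosome 2, 177392746 to 177567024, plus strand), alkylglycerone phosphate synthase, forms the ether bond of ether phospholipids in the peroxisome. It was at 96.2, 93.5 and 85.3 CPM in control libraries and at 101.3, 109.1 and 105.0 CPM with overexpression. All overexpression libraries were above all controls, with control replicate 3 lowest. The log2 fold change of 0.20 did not pass (SE 0.07, 95% interval 0.05 to 0.35, edgeR quasi-likelihood adjusted p = 0.0822). Without control replicate 3 it was 0.16 and passed (adjusted p = 0.0345, with 0.0345 to 0.247 over the alternatives), the smaller change going with a smaller spread of the controls.

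SAT1 (ENSG00000130066; chromosome X, 23783173 to 23786210, plus strand), spermidine/spermine N1-acetyltransferase, starts polyamine breakdown and is a p53 target that has been linked to lipid peroxidation through a lipoxygenase. It was at 109.9, 101.3 and 117 CPM in control libraries and at 118, 118 and 127 CPM with overexpression. The groups were apart by little, since control replicate 3 almost reached overexpression replicates 1 and 2. The log2 fold change was 0.15 (95% interval -0.01 to 0.31, adjusted p = 0.198, edgeR quasi-likelihood). Without control replicate 3 it was 0.20 and passed (adjusted p = 0.0215), and without control replicate 2 it was 0.09 (adjusted p = 0.467), the ends of the range over the alternatives.

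The count of called enzymes depended on single libraries. It was 6 of 10 without control replicate 3, where 27.0% of all genes tested were called, and 1 of 10 without USAG-1 overexpression replicate 1 or 2, where 6.92% and 5.98% were. POR was the enzyme still called in both of the latter. Control replicate 3 differed from the mean of the other controls by 0.09 to 0.30 in absolute log2 for the 10 genes. It was lower for ACSL3, ACSL4, ACSL5, MBOAT2 and AGPS and higher for ACSL1, LPCAT3, MBOAT1, POR and SAT1.

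Ratios of counts between related enzymes within a library do not depend on library scaling, and 5 were computed to set changes of enzymes side by side. The ratio of ACSL3 to ACSL4 was 0.541, 0.517 and 0.534 in control libraries and 0.614, 0.634 and 0.625 with USAG-1 overexpression. The groups did not overlap, and control replicate 3, which was low for both genes, fell between the other controls in their ratio. The mean ratio went from 0.531 ± 0.0122 to 0.625 ± 0.00999 (SD, n = 3 each), a log2 difference of 0.24. A two-sided exact permutation test gave p = 0.1, the smallest that 3 libraries against 3 allow, and 0.25 after Benjamini-Hochberg adjustment over the 5 ratios, so that this permutation test cannot pass the threshold at this number of libraries.

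The ratio of MBOAT1 to LPCAT3 was 0.119, 0.122 and 0.124 in control libraries and 0.104, 0.0704 and 0.0917 with overexpression, again without overlap (log2 difference -0.47, exact permutation p = 0.1, adjusted 0.25). For MBOAT2 to LPCAT3 the means were 0.575 ± 0.0886 and 0.466 ± 0.0349, for ACSL1 to ACSL4 0.172 ± 0.024 and 0.197 ± 0.00547, and for ACSL5 to ACSL4 0.319 ± 0.0153 and 0.314 ± 0.0111 (SD, n = 3 each). In these 3 ratios the groups overlapped, with exact permutation p of 0.3, 0.3 and 0.7 (adjusted 0.375, 0.375 and 0.7). Control replicate 3 lay within the range of the overexpression libraries in the ratios with MBOAT2 and ACSL1, and above it for ACSL5 to ACSL4.

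**Figure D3:**
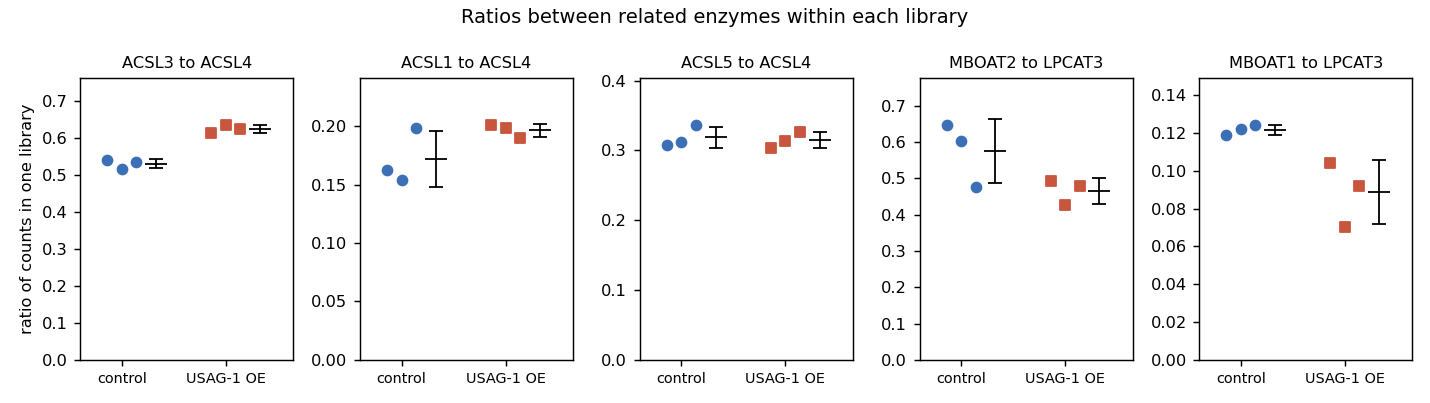
Ratio of the counts of a pair of enzymes in one library (y axis, from 0) for 5 pairs, in 3 control libraries (circles) and 3 USAG-1 overexpression libraries (squares), in order of replicate number, with the mean and SD beside them. The ACSL3 to ACSL4 ratio is 0.517 to 0.541 in control and 0.614 to 0.634 with overexpression, while the ACSL5 to ACSL4 ratios of the groups overlap.

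The 10 enzymes are part of wider families, which were described with 7 lists of other genes of fatty acid activation, acyl transfer, ether lipids, desaturation, peroxidation, polyamines and lipid release. Of 111 listed genes, 95 were tested and 14 were called, 5 higher and 9 lower, with a median log2 fold change of -0.04. Over all genes tested, 15.9% were called. The other acyl-CoA synthetases had 1 called gene of 11 tested and a median log2 fold change of 0.00. This was SLC27A4 (ENSG00000167114), a fatty acid transport protein with synthetase activity, which rose from 38.6 ± 2.83 to 50.0 ± 1.96 CPM (SD, n = 3 each) by 0.37 on the log2 scale (adjusted p = 0.0124, edgeR quasi-likelihood). It lost the call without control replicate 2 (0.35) or USAG-1 overexpression replicate 2 (0.36) or 3 (0.36). ACSL6, the remaining long-chain synthetase of the ACSL family and one chosen here after its values were seen, had 12 counts in control replicate 1, none in the other controls, and 0, 4 and 6 counts with overexpression.

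Of the 15 other acyltransferases of phospholipids and glycerol phosphate that were tested, 4 fell, beside 6.91% of all genes called lower, and none was called higher, with a median log2 fold change of -0.13. LPCAT1 (ENSG00000153395), which makes saturated phosphatidylcholine, was at 139.7, 138 and 147 CPM in control libraries and 108.5, 106.5 and 100.5 CPM with overexpression, a log2 fold change of -0.43 (edgeR quasi-likelihood, adjusted p = 0.00295, SE 0.06). GPAM (ENSG00000119927), the mitochondrial glycerol phosphate acyltransferase that starts glycerolipid synthesis, fell from 39.7 ± 0.252 to 30.5 ± 0.881 CPM (SD, n = 3 each), by 0.38 on the log2 scale (adjusted p = 0.00521, edgeR, SE 0.06). In both genes the groups were apart by more than their spread.

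GPAT2 (ENSG00000186281), another mitochondrial enzyme of that step, fell by 0.36 on the log2 scale (adjusted p = 0.00805, edgeR quasi-likelihood), and was lost without USAG-1 overexpression replicate 2 (-0.36). A copy of it, GPAT2P1, had 671 to 869 counts of its own, so the split of reads between them is uncertain. AGPAT4, named after its values were seen, fell by 0.38 and was lost without USAG-1 overexpression replicate 1 (-0.38), 2 (-0.35) or 3 (-0.39). MBOAT7, which places arachidonic acid in phosphatidylinositol and is also named after its values were seen, had a log2 fold change of 0.03 (adjusted p = 0.879).

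Among the other enzymes of ether lipids and plasmalogens, 1 of 13 was called, beside 15.9% of all genes, and the median log2 fold change was -0.07. CEPT1 (ENSG00000134255), which adds the choline or ethanolamine head group, was at 27.2, 26.3 and 25.1 CPM in control libraries and 15.6, 16.2 and 16.8 CPM with overexpression. This log2 fold change of -0.69 (edgeR quasi-likelihood, adjusted p = 0.00128, SE 0.08) was the largest among the called genes of the lists, together with ELOVL7 at 0.69. CEPT1 overlaps DRAM2 by 615 bases on the opposite strand, a gene with 171% as many counts. The partners of AGPS in the peroxisome, GNPAT and FAR1, chosen here after their values were seen, had log2 fold changes of -0.05 and 0.04 and were not called.

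The desaturases and elongases set which fatty acids reach the ACSL enzymes. Of 17 tested, 3 fell and 1 rose, beside 6.91% of all genes called lower and 8.95% called higher. The median log2 fold change was -0.03. SCD (ENSG00000099194), the desaturase that makes monounsaturated fatty acids, was at 1430.1, 1429 and 1476 CPM in control libraries and at 1062, 1089 and 1051 CPM with overexpression. Its log2 fold change was -0.44 (edgeR quasi-likelihood, adjusted p = 0.00113, SE 0.05), and the lowest control library was far above the highest overexpression library. FADS3 (ENSG00000221968) fell by 0.35 on the log2 scale (adjusted p = 0.00675), from 71.5 ± 1.69 to 56.0 ± 2.29 CPM (SD, n = 3 each).

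ELOVL7 (ENSG00000164181), an elongase of long-chain fatty acids, rose by 0.69 on the log2 scale, from 15.8 ± 1.77 to 25.5 ± 0.501 CPM (SD, n = 3 each) (edgeR quasi-likelihood, adjusted p = 0.00329, SE 0.10). FADS2, the first desaturase on the way to polyunsaturated fatty acids and named after its values were seen, fell by 0.45 (adjusted p = 0.0211) and was lost without control replicate 1 (-0.45) or USAG-1 overexpression replicate 1 (-0.43) or 3 (-0.38). ELOVL5 and FADS1, which act on the same route and were chosen in the same way, had log2 fold changes of 0.02 and 0.07 and were not called.

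**Figure D4:**
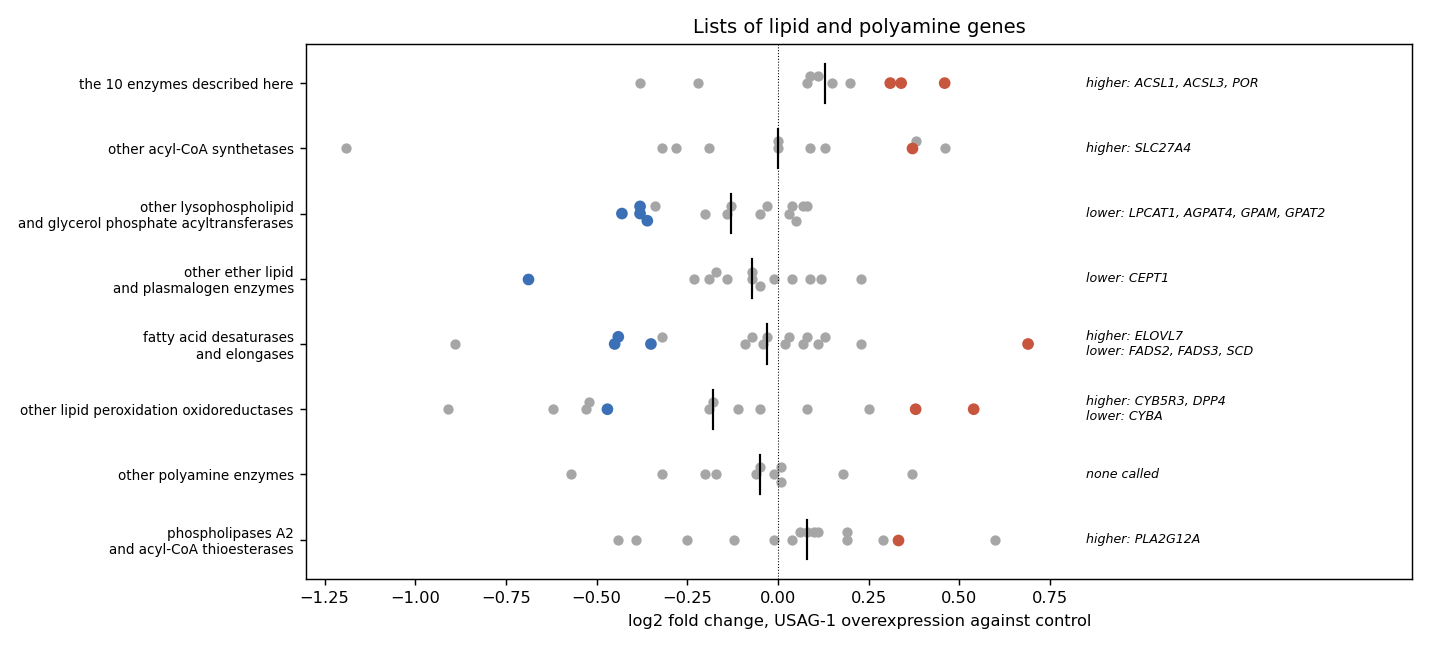
Log2 fold change (x axis) of every tested gene in the 10 enzymes and in 7 lists of related genes (rows), with called genes in colour and named at the right, other genes in grey and the median of each row as a black line. Called genes are all higher among the 10 enzymes and all lower among the other acyltransferases, and no polyamine gene is called.

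Of 13 other oxidoreductases and partners of lipid peroxidation, 2 rose and 1 fell, beside 8.95% of all genes called higher and 6.91% lower. The median log2 fold change was -0.18. CYB5R3 (ENSG00000100243), an NADH-dependent reductase of cytochrome b5 and a flavoprotein of the endoplasmic reticulum like POR, was at 246, 248 and 283 CPM in control libraries and 322, 356 and 331 CPM with overexpression. Its log2 fold change was 0.38 (adjusted p = 0.0118, edgeR quasi-likelihood). It lost the call without control replicate 2 (0.35) or USAG-1 overexpression replicate 2 (0.34) or 3 (0.39), and it overlaps A4GALT on the same strand, which had 8.47% as many counts. CYB5R1, which has been named with POR as a source of peroxidation and was chosen here after its values were seen, had a log2 fold change of 0.25 that did not pass (adjusted p = 0.0676).

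DPP4 (ENSG00000197635), a surface peptidase that is rich on proximal tubule cells and has been linked to NADPH oxidases in ferroptosis, was at 201, 191 and 165 CPM in control libraries and 285, 271 and 256 CPM with overexpression. Its log2 fold change was 0.54 (edgeR quasi-likelihood, adjusted p = 0.00457, SE 0.08). CYBA (ENSG00000051523), the p22 subunit of NADPH oxidases, fell from 193 ± 6.11 to 139 ± 6.1 CPM (SD, n = 3 each) by 0.47 (adjusted p = 0.00195). CYBA is also a gene of leukocytes, and 6 of 8 pan-leukocyte markers were called lower in the same libraries, beside 6.91% of all genes. Whether these falls are linked was not tested.

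None of the 11 other genes of polyamine metabolism that were tested was called by edgeR, beside 15.9% of all genes. Of these, 2 had an unadjusted p under 0.05 (edgeR), beside 30.5% of all genes, and DESeq2 called 1. SRM (ENSG00000116649), spermidine synthase, had the smallest p, with 120.1, 122 and 162 CPM in control libraries and 168, 176 and 177 CPM with overexpression. Control replicate 3 stood close to the overexpression libraries and far from the other controls. Its log2 fold change of 0.37 did not pass (adjusted p = 0.0599, edgeR quasi-likelihood) and was 0.52 without control replicate 3 (adjusted p = 5.29e-05, with 5.29e-05 to 0.179 over the alternatives). It also passed with library sizes alone (edgeR adjusted p = 0.0273), with at least 10 counts in every library (0.0489) and by the DESeq2 Wald test (0.00713).

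The phospholipases A2 and acyl-CoA thioesterases, which release fatty acids again, had 1 called gene of 15 tested, beside 15.9% of all genes. Their median log2 fold change was 0.08. PLA2G12A (ENSG00000123739), a secreted phospholipase A2, was at 19.9, 23.3 and 21.3 CPM in control libraries and 25.7, 27.7 and 27.5 CPM with overexpression. The groups did not overlap and the log2 fold change was 0.33 (edgeR quasi-likelihood, adjusted p = 0.0339, SE 0.08). The call was lost without control replicate 1 (0.28), without USAG-1 overexpression replicate 1 (0.36), 2 (0.31) or 3 (0.32), and with no filter on low counts (0.33), with adjusted p from 0.021 to 0.129 over the alternatives.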

How the data were processed

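RNA of 6 HK-2 libraries was sequenced. The labels' extract protocol describes oligo(dT) selection and strand-specific libraries, whereas the series' design text names removal of rRNA, so that the kind of library is uncertain, which bears on the mitochondrial share. The authors deposited whole-number read counts per gene, with gene coordinates, and these were used as deposited. The table's name says FPKM, but its columns are headed as counts and hold whole numbers with a different total in each library. The submitters' processing notes name cutadapt 1.9, FastQC and hg38. The aligner, counter, annotation and strand setting are not given in the sources used here. Groups came from the sample labels.

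Genes were filtered with filterByExpr, scaled by TMM and tested with the edgeR 4.0.16 quasi-likelihood test (R 4.3.3) on all 6 libraries without covariates, and p-values were adjusted over all 18188 genes. No replicate pair was a copy. Depth was 41236194 to 48699471 counts, and 3 counts corresponded to 0.0608 to 0.0719 CPM. Alternatives were DESeq2 1.42.0, other scalings and filters, a replicate block and leaving out each library. The fit was tested on simulated data with changes larger than those of the enzymes and no library set apart, so that this does not cover changes of their size. Ratios were compared by exact permutation tests.

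All 10 enzymes and SOSTDC1 were named. Of each related list, up to 3 called genes with the smallest p were named, or the gene with the smallest p where none was called. Of marker lists, defining markers at 0 and the 2 most abundant were named, and the 3 genes correlated best with the enzyme of smallest p. The enzymes and lists were chosen with earlier results of these data known.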

Additional observations from a re-analysis of the deposited data

How the results depend on the processing

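No direction of the 10 enzymes, or of the called related genes named and SRM, turned under the 13 alternatives. The other related genes were refitted too, but their directions were not followed gene by gene. SOSTDC1 passed in each alternative. Leaving out single libraries moved the genes called from 2884 (15.9% of those tested) to between 1137 (5.98%) and 5091 (27.0%). The enzymes called moved from 3 to between 1 and 6 and the called genes of the related lists from 14 to between 9 and 30. The median log2 fold change of the 10 enzymes moved from 0.13 to between 0.12 and 0.15. With library sizes alone that median was 0.14. Testing without a filter on low counts called 2034 of 32507 genes (6.26%), with 3 of the enzymes. The DESeq2 Wald test called 3393 of 16724 (20.3%), also with 3 of the enzymes. With the replicate number as a block, 2381 genes (13.1%) and 2 enzymes were called, ACSL1 being lost at an adjusted p of 0.053 (edgeR) and SRM passing at 0.0414. The numbers were not taken as pairs, since the correlations of the deviations of same-numbered libraries were 0.07, -0.054 and 0.037. The cause of these differences was not tested. With 3 libraries a group, the 95% interval of an enzyme's log2 fold change was wider than many of the changes themselves, and MBOAT1, with 214 to 370 counts, was the least precise.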

Other observations

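The lipoxygenases and their activating protein, chosen here after their values were seen, were scarce in these libraries. ALOX15, the enzyme that SAT1 has been linked to, had no count in 5 libraries and 4 counts in USAG-1 overexpression replicate 3. ALOX12B had no count in any library. ALOX5 had 135, 132 and 125 counts in control libraries and 107, 87 and 149 with overexpression, so that the groups overlapped. ALOX12 had 67, 89 and 64 counts and then 67, 39 and 45, a log2 fold change of -0.53 that did not pass (adjusted p = 0.219, edgeR). ALOX5AP, which presents arachidonic acid to ALOX5, had 258, 279 and 318 counts in control libraries and 131, 246 and 213 with overexpression, each of the latter below every control, and did not pass (log2 fold change -0.52, adjusted p = 0.205). In the same libraries 6 of 8 pan-leukocyte markers were called lower, beside 6.91% of all genes. Whether the ALOX5 and ALOX5AP counts are linked to this was not tested.

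Of the thioesterases, ACOT8 of the peroxisome and ACOT11, also chosen after their values were seen, had log2 fold changes of -0.39 and -0.44 that did not pass (adjusted p = 0.0526 and 0.0773, edgeR).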
